A study of Mus musculus with 75 samples.

Results

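The data concern 9 genes that mark resident Kupffer cells, the macrophages of the liver sinusoids: Cd163, Marco, Timd4, Clec4f, Vsig4, Cd5l, Folr2, Adgre1 and Csf1r. They were taken by gene symbol from the 55536 genes of a count table of mouse liver RNA, and all 9 were found. The list was chosen with earlier results of these data known. In part the members were selected on measured values, since Cd163 was among the genes with the largest decrease in the uninvolved liver of tumor-bearing mice against low-risk liver at 10 months. Values from that comparison, and from every comparison that holds those uninvolved or 10-month low-risk samples, are therefore given below as a description without a test.

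All mice were C57Bl/6 and labelled male. Exposed offspring came from dams given the organotin tributyltin (TBT) in drinking water until weaning, at a daily 0.5 mg per kg (3.07 µM), and controls came from vehicle dams. Livers of 3 weeks comprised 7 vehicle and 8 TBT samples. Livers of 5 months comprised 8 vehicle samples and, among those exposed to TBT, 16 labelled low-risk and 10 labelled high-risk, where risk refers to liver tumors. Samples of 10 months comprised 6 vehicle livers, 5 low-risk TBT livers, 5 samples of uninvolved liver from high-risk TBT mice and 7 tumors of high-risk TBT mice. How risk was assigned at 5 months, which litters the mice came from and whether any group was pooled are not given in the sources used here. It is not known whether these expression values were used to assign risk. If they were, p-values of comparisons with the 5-month risk groups would not come from an independent test. Beyond the labels nothing states that samples were separate animals, so p-values measure the spread between these samples only.

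Kupffer cells are seeded before birth and renew themselves in the liver, where signals from hepatocytes, stellate cells and sinusoidal endothelium maintain their identity. They clear bacteria, dying cells, aged erythrocytes and haemoglobin from portal blood. When resident cells are lost, monocytes from the blood can fill the niche and acquire the Kupffer programme stepwise, and Timd4 is known as a gene that such newcomers gain late. Among the 9 genes, Cd163 encodes a scavenger receptor for haptoglobin-haemoglobin complexes and Marco a scavenger receptor for bacteria and particles. Timd4 encodes the phosphatidylserine receptor TIM-4, Clec4f a C-type lectin that in mice is largely restricted to Kupffer cells, and Vsig4 a complement receptor. Cd5l encodes a secreted protein of the scavenger receptor family, Folr2 a folate receptor, Adgre1 the pan-macrophage protein F4/80, and Csf1r the receptor for the macrophage growth factors CSF1 and IL-34.

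The 75 libraries held between 2.83 and 45.4 M (mega) counts. Levels are counts per M counts (CPM) after TMM scaling over all samples. In whole liver, fewer cells of a type and less RNA per cell cannot be told apart. Among all libraries, 6 deviated technically, having under 5 M counts, more than 35000 detected genes or a mitochondrial share above 10%. Xist, a transcript of female cells, was at 348 CPM in the library labelled TBT 4 of 3 weeks and at 84.6 CPM or less in every other library. Its 4 Y-linked genes summed to 7.08 CPM, against at least 93.95 CPM elsewhere, so this library went against its male label, which may be wrong. Macrophage markers were present in every group: summed over the 16 general macrophage genes, the level ran from 346 to 758 CPM in 5-month low-risk livers and from 571 to 1156 CPM in high-risk livers.

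In the GRCm38 assembly with GENCODE M21 gene models, Cd163 lies at chr6:124304656-124330527 and Clec4f at chr6:83644542-83656187, on opposite strands of the same chromosome. Marco lies at chr1:120474538-120505024, Cd5l at chr3:87357881-87371073, Folr2 at chr7:101839988-101857194, Timd4 at chr11:46810800-46844332, Adgre1 at chr17:57358691-57483527 and Vsig4 at chrX:96247203-96293438. All 9 are protein-coding. Folr2 overlaps Gm10602 and Gm45319 on the other strand, and Csf1r overlaps Hmgxb3 on the other strand and the microRNA gene Mir6983. The strand setting of the counting is not given in the sources used here, so counts of Folr2 and Csf1r are uncertain to the extent that those genes are transcribed.

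The sequence before the start site is shown for 4 members: Cd163 and Timd4, which had the largest decreases in high-risk liver, Marco, whose level depended on the sample, and Cd5l, which passed no test at 5 months or in tumors against vehicle livers. Each line is the 250 bases before the RefSeq start, 5′ to 3′ on the gene's strand, from the RefSeq promoter table of GRCm38.p6. The windows are chr6:124304401-124304650 (plus strand) for Cd163, chr11:46810549-46810798 (plus) for Timd4, chr1:120505025-120505274 (minus) for Marco and chr3:87357631-87357880 (plus) for Cd5l. Capitals mark matches, on either strand, to 4 motifs of 6 letters: for the macrophage factor PU.1 the letters GAGGAA, which read TTCCTC on the reverse strand, for the Notch effector RBPJ the letters TGGGAA, in reverse TTCCCA, for a MAF half-site the letters TGCTGA, in reverse TCAGCA, and for the E-box the letters CACGTG.
Cd163: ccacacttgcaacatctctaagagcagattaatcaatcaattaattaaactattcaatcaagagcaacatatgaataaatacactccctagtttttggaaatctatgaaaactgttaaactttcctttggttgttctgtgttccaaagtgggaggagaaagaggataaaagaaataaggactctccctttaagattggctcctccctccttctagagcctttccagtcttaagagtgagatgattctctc
Timd4: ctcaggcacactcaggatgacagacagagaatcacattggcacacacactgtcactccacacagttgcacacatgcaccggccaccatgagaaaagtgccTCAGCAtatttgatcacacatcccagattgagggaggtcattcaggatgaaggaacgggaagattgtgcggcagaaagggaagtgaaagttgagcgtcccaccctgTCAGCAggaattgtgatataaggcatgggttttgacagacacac
Marco: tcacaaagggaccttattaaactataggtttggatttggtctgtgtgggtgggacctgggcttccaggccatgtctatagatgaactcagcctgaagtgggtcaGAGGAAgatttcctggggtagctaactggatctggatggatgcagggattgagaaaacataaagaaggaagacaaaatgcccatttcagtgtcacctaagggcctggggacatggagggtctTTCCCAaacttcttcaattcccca
Cd5l: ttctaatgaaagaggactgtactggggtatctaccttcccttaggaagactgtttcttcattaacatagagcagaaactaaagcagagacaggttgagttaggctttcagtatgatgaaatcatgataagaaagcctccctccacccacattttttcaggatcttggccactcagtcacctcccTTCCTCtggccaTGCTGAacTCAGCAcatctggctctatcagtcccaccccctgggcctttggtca
No motif of the 4 matched in the Cd163 window. The Timd4 window held the MAF half-site in reverse, starting 150 and 44 bases before the start. The Marco window held the PU.1 motif at 146 and the reverse RBPJ motif at 24 bases before the start. The Cd5l window held the reverse PU.1 motif at 66 and the MAF half-site at 54 and, reversed, at 46 bases before the start. Of 32841 RefSeq promoter windows of this length, 23.3% held the PU.1 motif, 21.6% the RBPJ motif, 16.1% the MAF half-site and 6.02% the E-box, so single matches are common. Of the other members in the table, the Vsig4 window held the PU.1 motif at 155 and 53, and that of Clec4f held the MAF half-site at 199 and the RBPJ motif at 35 bases before the start. Folr2 had a pair of start sites with a MAF half-site at 220 and at 19 bases, respectively. Promoters were matched for 7 of the 9 members, all but Adgre1 and Csf1r.

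In unexposed liver the 9 genes differed widely in level. Per kilobase of exon, the 10-month vehicle livers had median levels of 45.0 CPM per kb for Clec4f, 44.4 for Cd5l, 25.2 for Vsig4, 13.3 for Csf1r, 10.1 for Adgre1, 5.73 for Marco, 4.45 for Cd163, 2.98 for Timd4 and 2.09 for Folr2. Clec4f and Cd5l overlapped in range, and so did each neighbouring pair from Adgre1 down to Folr2 in this order. In high-risk liver of 5 months and in uninvolved liver of 10 months the same scale placed Cd163 last, with medians of 0.238 and 0.243 CPM per kb. Its range overlapped that of Timd4 in both groups.

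**Figure D1:**
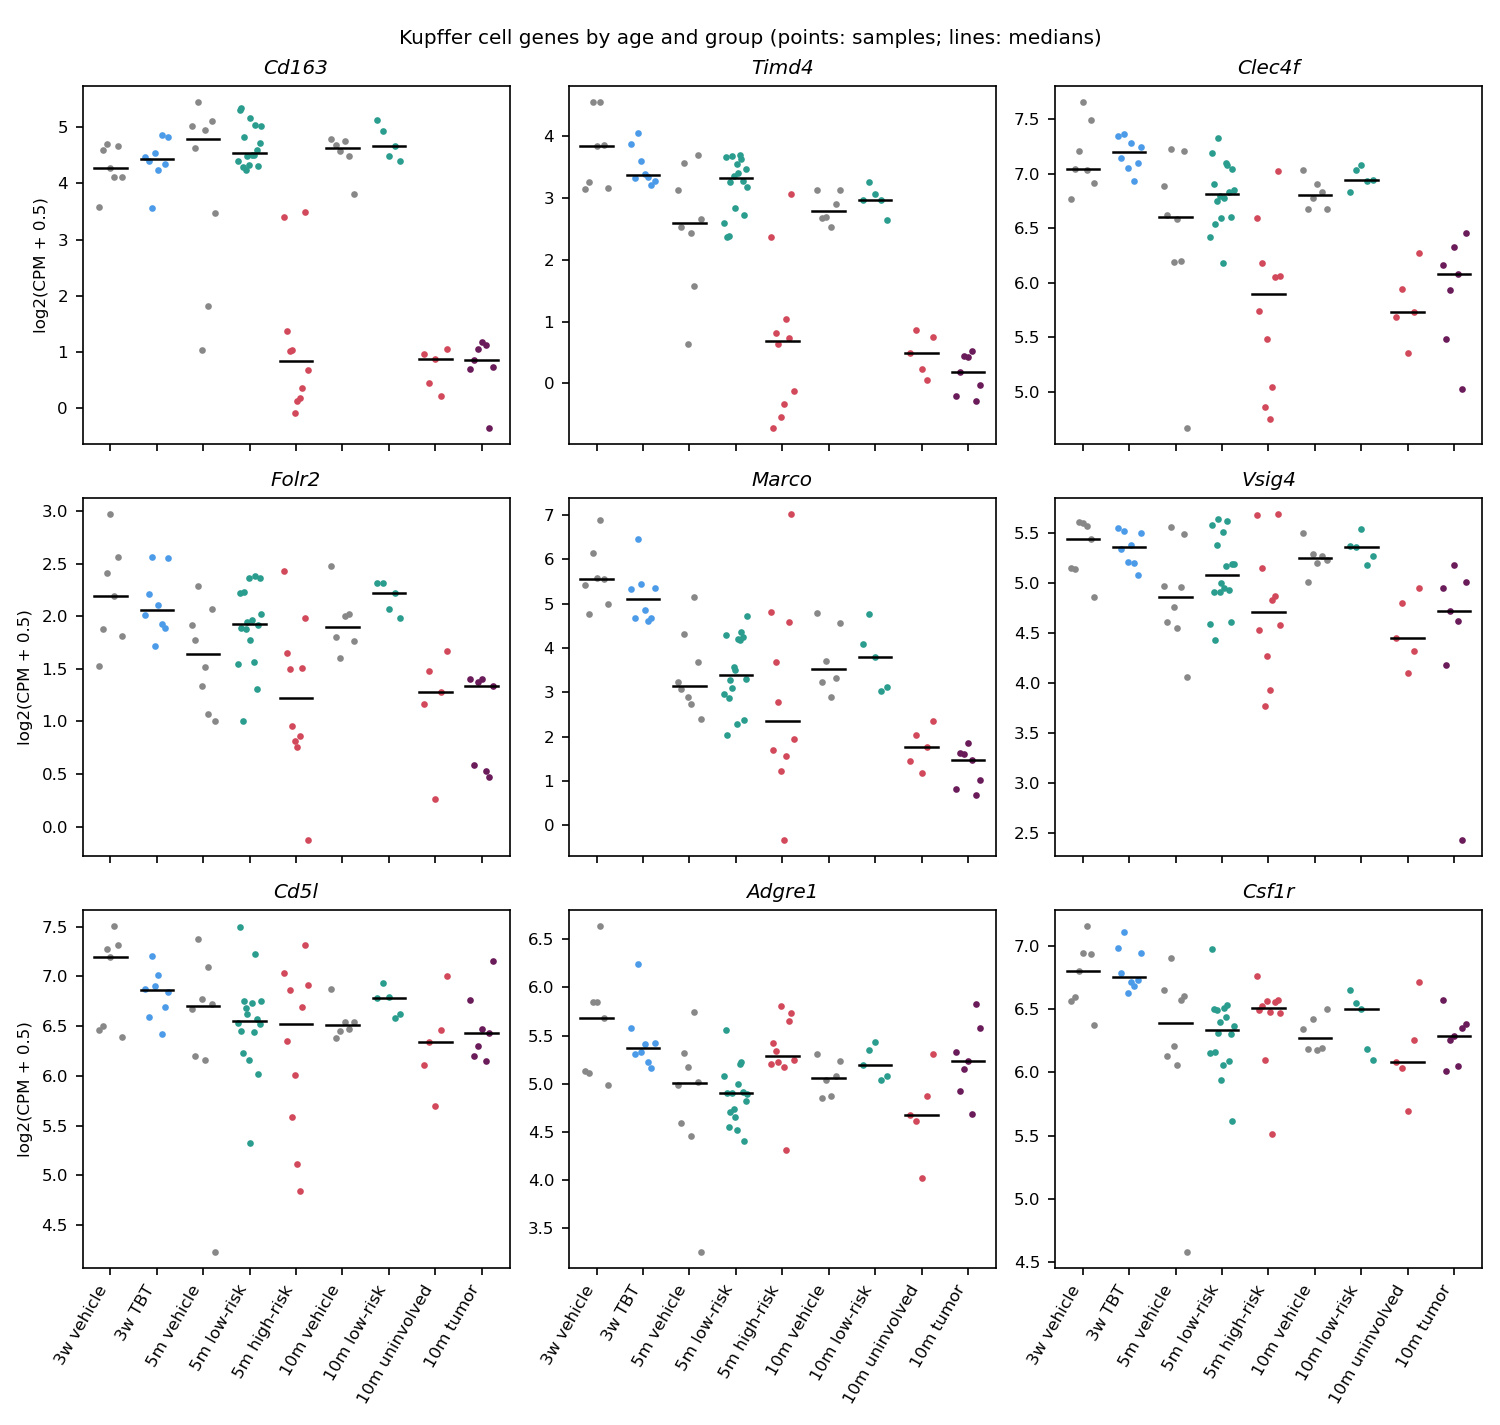
Level of each of the 9 genes in the 9 groups, as log2(CPM + 0.5), with 1 point per sample and a line at the group median. Cd163 and Timd4 sit low in most 5-month high-risk and in all uninvolved and tumor samples, and 2 of the 5-month vehicle livers sit low with them. The ranges of Cd5l overlap across all groups.

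Ordered by group median, Cd163 ran from 27.3 CPM in 5-month vehicles through 24.8 in 10-month low-risk, 24.3 in 10-month vehicle, 22.8 in 5-month low-risk, 21.2 in 3-week TBT and 18.8 in 3-week vehicle livers. Then it dropped to 1.33 CPM in uninvolved liver, 1.32 in tumors and 1.30 in 5-month high-risk livers. All neighbours in this order overlapped except 3-week vehicle and uninvolved liver, between which the order broke. For Timd4, Marco, Clec4f and the other members, every pair of neighbouring groups overlapped. The highest medians of Timd4, Marco, Vsig4, Cd5l, Adgre1 and Csf1r were all in 3-week vehicle livers, at 13.9, 46.8, 42.8, 145, 50.7 and 111 CPM. The lowest medians of Timd4 and Marco were in tumors, at 0.639 and 2.27 CPM.

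At 5 months, high-risk livers had less Cd163, Timd4, Clec4f and Folr2 and more Adgre1 than low-risk livers, both groups being TBT-exposed. By edgeR's quasi-likelihood test with Benjamini-Hochberg adjustment over all genes, 4 of the 9 members were lower and 1 was higher at an adjusted p under 0.05. In that comparison 20.3% of all tested genes were higher and 18.5% lower. The median log2 fold change of the 9 was -0.28, against -0.01 over all tested genes.

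Cd163, the haemoglobin scavenger receptor, was at 18.3 to 40.0 CPM in the 16 low-risk livers, with a median of 22.8. In the 10 high-risk livers it was at 0.439 to 10.8 CPM, with a median of 1.30. All 10 high-risk livers were below all 16 low-risk livers. High-risk livers 1 and 22, at 10.1 and 10.8 CPM, stood above the other 8, none of which passed 2.09 CPM. The log2 fold change was -3.20 (SE 0.52, adjusted p = 1.54e-05), a level 9.21-fold lower. The fall held within each sequencing batch: the log2 fold change was -4.45 (SE 0.91, adjusted p = 0.0147) among 6 low-risk and 3 high-risk livers of batch 1, and -2.73 (SE 0.60, adjusted p = 0.00333) among 10 and 7 livers of batch 2.

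Timd4, the receptor for phosphatidylserine on dying cells, had a median of 9.51 CPM in low-risk livers, with a range of 4.66 to 12.5 CPM. High-risk livers had a median of 1.12 CPM and a range of 0.110 to 7.88 CPM. Again high-risk livers 1 and 22 were the highest of their group, at 4.66 and 7.88 CPM, and they overlapped the low-risk range. The other 8 were below every low-risk liver. Timd4 fell by 2.35 on the log2 scale (SE 0.45, adjusted p = 9.27e-05), and it fell in both batches, by 2.90 (adjusted p = 0.028) and 2.14 (adjusted p = 0.0117).

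Clec4f, the Kupffer lectin, changed less. Its low-risk median was 112 CPM (72 to 160) and its high-risk median 59.4 CPM (26.4 to 130). Of the 10 high-risk livers, 7 were below all low-risk livers. The log2 fold change was -0.91 (SE 0.19, adjusted p = 3.22e-04). In batch 1 alone it was -0.98 with an adjusted p of 0.0939, and in batch 2 alone -0.90 with an adjusted p of 0.0128.

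Folr2, the folate receptor, had a low-risk median of 3.31 CPM (1.5 to 4.72) and a high-risk median of 1.88 CPM (0.418 to 4.89). The ranges overlapped, with 5 high-risk livers below every low-risk liver. Its log2 fold change was -0.65 (SE 0.25, adjusted p = 0.0373). That call was lost in batch 1 alone (-0.54, adjusted p = 0.491) and batch 2 alone (-0.73, adjusted p = 0.103), where the fold changes were about as large. It was also lost with no filter on low counts (adjusted p = 0.0687), without technically deviating libraries (adjusted p = 0.104), with the 2 groups only (adjusted p = 0.0508), and without any 1 of high-risk livers 10, 12, 13, 15 or 25 or low-risk livers 3, 14, 20 or 24, with adjusted p-values of 0.0525 to 0.0684.

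Adgre1, the F4/80 gene, was the member that rose. It had a median of 29.3 CPM in low-risk livers (20.7 to 46.4) and 38.7 CPM in high-risk livers (19.4 to 55.6), with overlapping ranges. The log2 fold change was 0.46 (SE 0.15, adjusted p = 0.0122). It was 0.18 in batch 1, where it passed no test (adjusted p = 0.814), and 0.56 in batch 2 (adjusted p = 0.002). The summed general macrophage genes given above were also higher in high-risk livers, with overlapping ranges, and their part in this rise was not tested.

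The remaining 4 members passed no test at 5 months. Csf1r had medians of 80.5 CPM in low-risk and 90.7 CPM in high-risk livers, a log2 difference of 0.12 with a 95% interval of -0.14 to 0.38 (adjusted p = 0.508). Cd5l had medians of 93.3 and 91.7 CPM (log2 difference -0.14, adjusted p = 0.661). Vsig4 had medians of 33.4 and 25.6 CPM, with a log2 difference of -0.28 and an interval of -0.64 to 0.08 (adjusted p = 0.233). Marco varied widely between samples: high-risk livers ran from 0.298 to 129 CPM with a median of 4.84, around a low-risk range of 3.59 to 26.03 CPM with a median of 10.04. High-risk liver 22 alone held the 129 CPM, followed by liver 1 at 27.4 and liver 17 at 23.7 CPM. The log2 difference of Marco was 0.55 (SE 0.55, adjusted p = 0.45) with all livers and -0.47 (SE 0.45, adjusted p = 0.428) without high-risk liver 22.

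**Figure D2:**
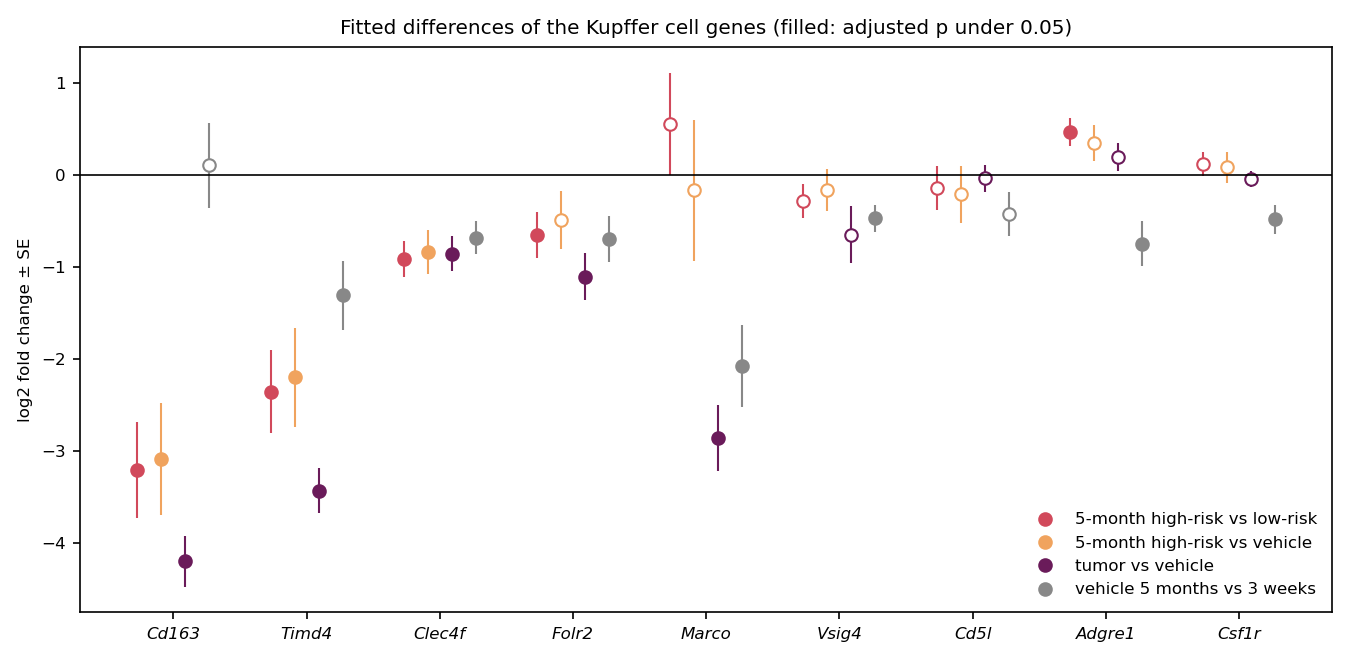
Log2 fold change with its standard error for the 9 genes in 4 comparisons, filled points having an adjusted p under 0.05. Cd163 and Timd4 lie farthest below 0 in both high-risk comparisons at 5 months and in tumors against vehicle livers, whereas in vehicle livers between 3 weeks and 5 months Marco lies lowest and Cd163 near 0.

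Against the 5-month vehicle livers, which were not exposed to TBT, the high-risk livers had less Cd163, Timd4 and Clec4f. The comparison shares its high-risk samples with the preceding one. It called 3 of the 9 members lower and 0 higher, where 7.38% of all genes were lower and 8.47% higher, and the median log2 fold change of the 9 was -0.21. Cd163 fell by 3.08 on the log2 scale (SE 0.61, adjusted p = 0.00125), the log2 fold changes of Timd4 and Clec4f being -2.20 (SE 0.54, adjusted p = 0.00574) and -0.84 (SE 0.24, adjusted p = 0.0163). A fit of these 2 groups alone lost the calls of Timd4 (adjusted p = 0.0508) and Clec4f (adjusted p = 0.0792). Clec4f also lost its call without vehicle liver 8 (adjusted p = 0.0803) and with no filter on low counts (adjusted p = 0.0733). Among batch 1 livers alone, 3 high-risk against 7 vehicle, no member passed the threshold, the adjusted p of Cd163 being 0.0787 at a log2 fold change of -3.96. Batch 2 held a single vehicle liver.

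The 8 vehicle livers of 5 months were not alike in these genes. Cd163 ran from 1.55 to 43.1 CPM in them with a median of 27.3, and vehicle livers 4 and 6 were lowest at 1.55 and 3.02 CPM. Those livers were lowest in Timd4 as well, at 1.06 and 2.47 CPM, where the other 6 ran upward from 4.89 CPM. They also held 30.1 and 99.5 CPM of Gpnmb, a gene of lipid-associated macrophages, while no other vehicle liver of that age passed 3.23 CPM. Among high-risk livers the pattern was the converse. Livers 1 and 22, highest in Cd163 and Timd4, had the lowest Gpnmb of their group at 7.72 and 9.82 CPM, against 33.4 to 66.3 CPM in the other 8. Whether Gpnmb-bearing macrophages had a part in the level of Cd163 was not tested.

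Between low-risk and vehicle livers of 5 months no member passed the test: 0 were called by edgeR, 0 at an unadjusted p under 0.05 and 0 by DESeq2. Of all genes, 0% were higher and 0% lower at an adjusted p under 0.05. The log2 difference of Cd163 was 0.12, with an interval of -0.84 to 1.09, and that of Marco -0.72 (adjusted p = 0.94). The interval for Cd163 is wide, so differences within it are not excluded between these groups.

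At 10 months, uninvolved liver of tumor-bearing high-risk mice had lower values than low-risk liver for all 9 members. Cd163 was at 1.46, 0.654, 1.56, 0.864 and 1.33 CPM in uninvolved samples 1, 12, 3 with 6, 5 and 7. In low-risk livers 10, 2, 4, 8 and 9 it was at 20.7, 34.6, 30.2, 21.8 and 24.8 CPM. The groups were far apart, with a log2 fold change of -4.51, or 22.8-fold lower. Timd4 was at 0.903, 0.540, 1.19, 1.32 and 0.677 CPM in the same uninvolved samples, and at 5.79, 7.36, 9.12, 7.91 and 7.34 CPM in the low-risk livers, a log2 fold change of -3.04. Marco was at 2.25, 2.90, 4.63, 3.61 and 1.77 CPM against 8.25, 16.5, 26.7, 13.4 and 7.66 CPM (log2 fold change -2.30). These 3 genes did not overlap between the groups, and neither did Clec4f, Folr2 and Vsig4, which made 6 of the 9 members. The share of all genes without overlap was not computed, so nothing is read from that count.

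The other members differed less between the same samples. Log2 fold changes were -1.20 for Clec4f, -1.16 for Folr2, -0.85 for Vsig4, -0.53 for Adgre1, -0.42 for Cd5l and -0.27 for Csf1r. By count, 8 of the 9 were called lower and 0 higher, while of all genes 24.7% were lower and 27.7% higher. Since these samples chose the list, nothing is read from that count. Against 10-month vehicle livers, the uninvolved samples had log2 fold changes of -4.33 for Cd163, -2.91 for Timd4, -2.33 for Marco, -1.07 for Clec4f, -0.93 for Folr2 and -0.19 for Csf1r. There 7 members were called lower and 0 higher, beside 26.5% lower and 31.2% higher over all genes, and nothing is read from that count either. Low-risk against vehicle livers of 10 months gave log2 differences of 0.18 for Cd163, 0.13 for Timd4 and -0.03 for Marco, and 0% of all genes were called higher and 0% lower.

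Tumors of high-risk mice had less Cd163, Timd4, Marco, Folr2 and Clec4f than 10-month vehicle livers, and no member was higher. Thus 5 of the 9 were called lower, where 21% of all genes were lower and 24.8% higher, and the median log2 fold change of the 9 was -0.85 against -0.01 over all genes. For Cd163 the 6 vehicle livers ran from 13.5 to 27.1 CPM with a median of 24.3, and the 7 tumors from 0.285 to 1.77 CPM with a median of 1.32. The groups did not overlap, and Cd163 fell by 4.19 on the log2 scale (SE 0.28, adjusted p = 4.46e-07), an 18.3-fold lower level. These tumor values rest on 8 to 52 counts per library. The tumors share 6 mouse numbers with the uninvolved samples that chose the list. The tests of tumors against vehicle livers are therefore not independent of that choice.

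Timd4 ran from 5.26 to 8.31 CPM in vehicle livers and from 0.320 to 0.940 CPM in tumors, and fell by 3.43 (SE 0.24, adjusted p = 4.52e-07). Marco ran from 6.99 to 27.2 CPM in vehicle livers and from 1.10 to 3.09 CPM in tumors, and fell by 2.85 (SE 0.36, adjusted p = 3.84e-05). Both genes were lower in every tumor than in any vehicle liver. Folr2 fell by 1.11 (SE 0.25, adjusted p = 0.0024) and Clec4f by 0.85 (SE 0.19, adjusted p = 0.00184), the latter from a median of 111 CPM to one of 67.1 CPM. All 5 calls were kept when any 1 sample was left out.

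Csf1r, Cd5l and Adgre1 passed no test in tumors against vehicle livers. The log2 difference of Csf1r was -0.05, with a 95% interval of -0.22 to 0.12 (adjusted p = 0.677), so that a change of Csf1r of the size seen in Cd163 lies outside the interval. Cd5l differed by -0.04 (SE 0.14) and Adgre1 by 0.19 (SE 0.15). Vsig4 had a median of 37.5 CPM in vehicle livers and 25.7 CPM in tumors, with tumor 11 at 4.91 CPM. Its log2 fold change of -0.65 did not pass (adjusted p = 0.102), but without tumor 11 it was -0.46 with an adjusted p of 0.0135.

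Tumors and uninvolved liver, which in part share mouse numbers, differed little in the medians of these genes. The fit of this pair had no term for the mouse. Cd163 medians were 1.32 and 1.33 CPM (log2 difference 0.12, SE 0.37). Timd4 and Marco were each 0.54 lower in tumors on the log2 scale (-0.54, with SEs of 0.34 and 0.29), and Adgre1 was 0.56 higher (SE 0.20). Over all genes 7.55% were called higher and 10.5% lower. Since the uninvolved samples chose the list, no test of the members is given for this pair.

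The change of the risk difference between 5 and 10 months was -2.87 for Marco (SE 0.93), -1.32 for Cd163 (SE 0.74) and -0.99 for Adgre1 (SE 0.27), on the log2 scale. A negative value means a more negative difference at 10 months. Without 5-month high-risk liver 22, which held the 129 CPM of Marco, the change was -1.86 for Marco (SE 0.76) and -0.84 for Cd163 (SE 0.69). Over all genes 0.193% were called higher and 0.159% lower. As the change rests on the 10-month samples that chose the list, it is a description without a test of the members. For Adgre1 the risk difference itself was 0.46 at 5 months and -0.53 at 10 months.

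The levels of these genes were also set against Csf1r, a receptor of all macrophages, as a ratio of CPM per kb within each sample. Cd163 had a median of 0.329 of Csf1r in 5-month low-risk livers (0.246 to 0.564) and of 0.0161 in high-risk livers (0.00493 to 0.121). At 10 months the median ratio was 0.337 in vehicle livers, 0.343 in low-risk livers, 0.0158 in uninvolved liver and 0.0217 in tumors. High and low groups did not overlap in this ratio at either age. At these ages only the vehicle livers of 5 months spanned both, from 0.0223 to 0.484. At 3 weeks the ratio ran from 0.0864 to 0.297 in TBT livers and from 0.126 to 0.261 in vehicle livers. Timd4 had median ratios of 0.294 and 0.0349 in 5-month low-risk and high-risk livers, and of 0.230, 0.0351 and 0.0265 in 10-month vehicle livers, uninvolved liver and tumors. The ratio of Clec4f moved less, from 3.09 to 1.66 at 5 months and from 3.46 in 10-month vehicle livers to 1.86 in tumors. Adgre1 was at 0.648 of Csf1r in low-risk and 0.808 in high-risk livers of 5 months. These ratios show unequal change of genes within the samples, and how many macrophages each sample held was not measured.

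**Figure D3:**
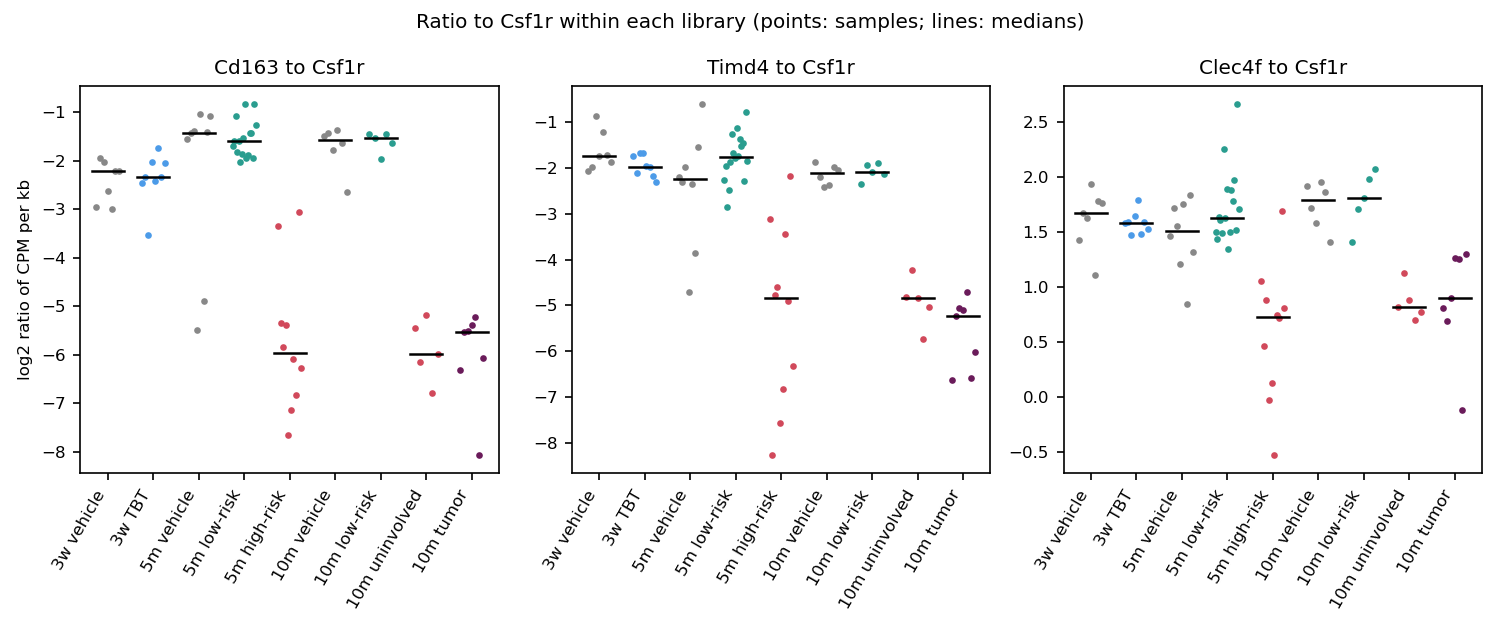
Ratio of Cd163, Timd4 and Clec4f to Csf1r, each in CPM per kb, on a log2 axis, with 1 point per sample by group. For Cd163 and Timd4 most 5-month high-risk livers and all uninvolved and tumor samples lie well under the low-risk and 10-month vehicle livers, while Clec4f lies closer to them.

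Over the 72 samples of the 9 groups, Cd163 and Timd4 were high together and low together, in separate clusters, so no single correlation is given for the pair. The low cluster held 8 of the 10 high-risk livers, all uninvolved and tumor samples and vehicle livers 4 and 6 of 5 months. High-risk livers 1 and 22 and vehicle liver 9 of 5 months had intermediate Cd163, at 10.1, 10.8 and 10.5 CPM. Vehicle liver 9 was a technically deviating library and was unlike the other 2 in its ratio to Csf1r. That ratio of Cd163 was 0.475 in vehicle liver 9, and 0.0986 and 0.121 in high-risk livers 1 and 22. All samples of 3 weeks and 10 months were of sequencing batch 1, those of 5 months were of batches 1 and 2, and all libraries share 1 batch-adjusted table.

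**Figure D4:**
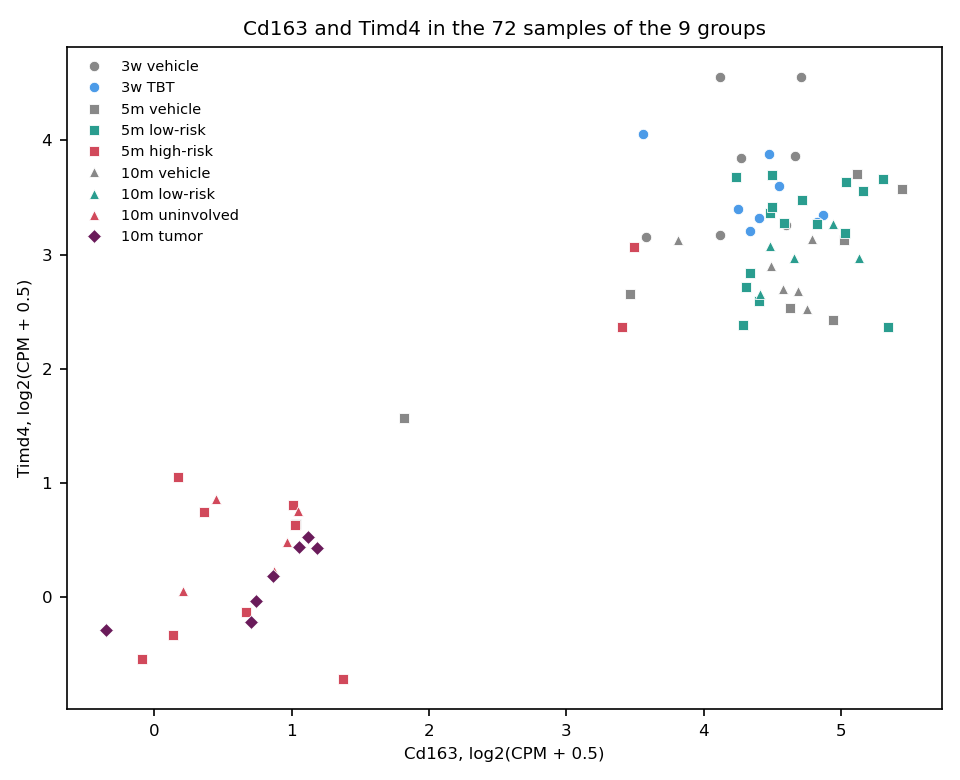
Cd163 against Timd4, both as log2(CPM + 0.5), with 1 point for each of 72 samples coloured by group. Most high-risk livers of 5 months and all uninvolved and tumor samples lie at the lower left, joined by 2 vehicle livers of 5 months.

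The genes most like each member were named by Pearson correlation of log2(CPM + 0.5) over the same 72 samples, among 12161 genes that are not members. Because the samples form clusters, such values largely restate the group differences and are given as a description. With the members left out of the ranking, closest to Cd163 were Colec10 (0.913), Nxpe2 (0.898) and Cyp2c29 (0.885), and closest to Timd4 were Colec10 (0.939), Hhip and Hsbp1l1. Fcna, a ficolin of macrophages, led for Clec4f (0.940), Folr2 (0.820) and Vsig4 (0.748). The complement regulator gene Cfp led for Cd5l (0.792), and Fpr1, a formyl peptide receptor gene, led for Marco (0.815). C1qc, a complement subunit gene of macrophages, led for Adgre1 (0.845), and Ptgs1 led for Csf1r (0.808). Between members, Clec4f and Vsig4 (0.819) and Adgre1 and Csf1r (0.817) were closer to each other than Vsig4 was to Fcna or Csf1r to Ptgs1.

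Other gene groups of the liver macrophage system were counted beside the members at 5 months, high-risk against low-risk. Of 20 other Kupffer-enriched genes, 4 were higher and 4 lower, with a median log2 fold change of 0.02. Vcam1, an adhesion molecule, rose by 1.40, while the ficolin gene Fcna (-1.30) and the prostaglandin-degrading enzyme gene Hpgd (-0.87) fell. Of 16 general macrophage genes 13 were higher and 0 lower (median 0.58), among them the protease Ctss (1.14) and the lysosomal marker Cd68 (0.90). Of 9 tested monocyte genes 6 were higher and 0 lower (median 0.88), led by the fractalkine receptor Cx3cr1 (3.17) and the chemokine receptor Ccr2 (1.70). Of 10 genes of lipid-associated macrophages, 9 were higher and 1 lower (median 2.34). Gpnmb rose by 5.05 and Trem2, a lipid-sensing receptor, by 3.16, and the 1 gene that fell was Fabp5, by 2.62, named after its value was seen.

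Markers of other cells moved in the same comparison. Of 10 sinusoidal endothelial genes 1 was higher and 6 lower (median -0.52). Of 6 dendritic cell genes 5 were higher and 0 lower, and of 5 tested T cell genes 4 were higher and 0 lower. Of 13 scavenger and uptake receptors 4 were higher and 4 lower (median 0.10). Summed monocyte genes ran from 12.6 to 162 CPM in low-risk and from 41.5 to 85.1 CPM in high-risk livers, which overlapped, and no gene of the macrophage, monocyte or lipid-associated lists was at 0 throughout. The part of these cells in the levels of the 9 members was not tested.

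**Figure D5:**
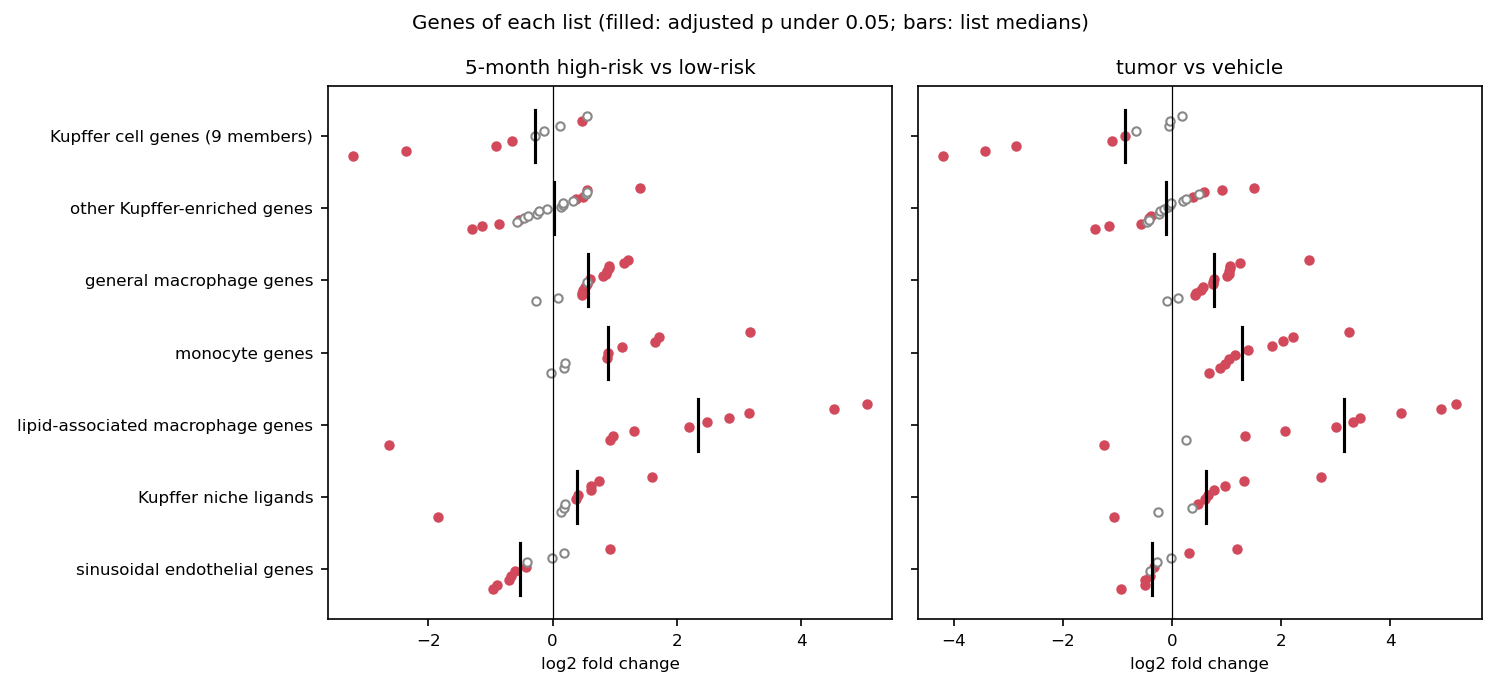
Log2 fold change of each gene of the other lists in 5-month high-risk against low-risk livers and in tumors against vehicle livers. General macrophage, monocyte and lipid-associated macrophage genes lie mostly above 0, and the other Kupffer-enriched genes lie on both sides of it.

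Of 10 ligands and signals of the Kupffer niche, 6 rose and 1 fell in 5-month high-risk livers (median 0.39). Csf1, a ligand of Csf1r, rose by 0.37, and the other ligand, Il34, differed by 0.19 without passing. Bmp10, a growth factor made by hepatic stellate cells, fell by 1.84, while Tgfb1 and Jag1 rose by 0.75 and 0.62. Csf1 had medians of 11.4 CPM in low-risk and 15.2 CPM in high-risk livers. In tumors against vehicle livers Csf1 rose by 0.77 and Il34 by 0.66, and Bmp10 fell by 1.07. There 4 other Kupffer-enriched genes were higher and 5 lower (median -0.11), 14 of 16 general macrophage genes were higher and 0 lower (median 0.77), and all 10 monocyte genes were higher (median 1.28). Gpnmb rose by 5.21 and Trem2 by 3.01 in tumors.

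In vehicle livers, Marco, Timd4, Clec4f, Adgre1, Folr2, Csf1r and Vsig4 fell between 3 weeks and 5 months. By count, 7 of the 9 were lower and 0 higher at 5 months, where 12.3% of all genes were lower and 11.9% higher, and the median log2 fold change of the 9 was -0.68. Marco fell most, from a median of 46.8 CPM (26.9 to 118) to 7.90 CPM (4.73 to 34.8) in the 7 batch 1 livers of 5 months, a log2 fold change of -2.07 (SE 0.44, adjusted p = 0.00182). Timd4 fell by 1.31 (SE 0.38, adjusted p = 0.0145) and Clec4f by 0.68 (SE 0.18, adjusted p = 0.00707). Adgre1 fell by 0.75, Folr2 by 0.70, Csf1r by 0.48 and Vsig4 by 0.47, with adjusted p-values of 0.0271, 0.046, 0.0272 and 0.0206. For all 7 the ranges of the ages overlapped. Cd163 differed by 0.10 (SE 0.46, adjusted p = 0.912), its 5-month range including vehicle livers 4 and 6.

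The count of 7 depended on single samples. It was 3 without 3-week vehicle liver 5, 3 without 5-month vehicle liver 5 and 4 without 5-month vehicle liver 2. The share of all genes called in those fits was not computed. Marco, Timd4 and Clec4f kept their calls when any 1 sample was left out. Markers of other cells moved with age too: 9 of 10 sinusoidal endothelial genes were lower at 5 months (median -0.69), 5 of 6 erythrocyte genes were lower and 1 higher, and 7 of 20 other Kupffer-enriched genes were lower and 4 higher. Their part in the members' change was not tested. Between 5 and 10 months 0 members were called in vehicle livers by edgeR or DESeq2, and edgeR called 6.68% of all genes higher and 7.41% lower. At an unadjusted p under 0.05, 1 member was higher. The share of all genes at that unadjusted threshold was not computed. The median log2 fold change of the 9 was 0.14.

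At 3 weeks no member passed the test between TBT and vehicle livers, with 0 called by edgeR, 0 at an unadjusted p under 0.05 and 0 by DESeq2. Over all genes 0% were higher and 0% lower at an adjusted p under 0.05. Cd163 ran from 11.3 to 28.7 CPM in TBT livers and from 11.5 to 25.6 CPM in vehicle livers, a log2 difference of 0.12 with an interval of -0.25 to 0.49. Timd4 had medians of 9.87 and 13.9 CPM (log2 difference -0.35, SE 0.23) and Marco of 34.2 and 46.8 CPM (log2 difference -0.47, SE 0.35). The ranges overlapped for every member. Without the library labelled TBT 4 the count of called members was also 0.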

How the data were processed

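Values are whole-number counts per gene, deposited in 1 table for all libraries. The name of the deposited file states that the counts come from featureCounts and were batch-adjusted by the authors with ComBat-seq. The submitters' processing notes name Trim Galore, HISAT2, featureCounts and mm10. Per the labels' protocols, RNA was made into TruSeq stranded total RNA libraries. How the batch adjustment treated the groups is not given in the sources used here. An adjustment of this kind can shift levels between batches, so within-batch values are given.

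The tests were those of edgeR 4.0.16 (R 4.3.3; filterByExpr, TMM, robust quasi-likelihood fits, Benjamini-Hochberg threshold 0.05 over all tested genes). All groups of 1 age entered 1 model, which at 5 months had a term for sequencing batch. Tumors were fitted with 1 other group only, and ages were compared among vehicle livers of batch 1. A standard error is the log2 fold change divided by the root of its F value. A 95% interval is the log2 fold change plus or minus 1.96 standard errors, which is narrower than the F test implies. A pair of 3-week vehicle libraries of mouse 3 was summed, as were uninvolved libraries 3 and 6, whose counts were far closer than those of any other pair. The only vehicle sample labelled as a tumor was compared with nothing. The fits were tested on simulated data.

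The 9 members and the gene lists were chosen with earlier results of these data known. Named were all members, up to 3 genes of a list with the smallest p, the 3 genes most like each member, and Gpnmb, Trem2, Csf1 and Il34. Alternatives were RLE size factors, no filter, DESeq2 1.42.0, other fits and batches, replicate blocks, and leaving out samples. Tumors and uninvolved liver with the same mouse number in their titles were taken to be from the same animal, which the counts do not settle. The main fit of tumors against uninvolved liver had no term for the mouse. Counts with a block for the mouse number are given with the alternatives. Samples that share a number did not deviate together in every pair in any comparison, with correlations of -0.285 to 0.653 among tumors and uninvolved liver of the same mouse number.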

Additional observations from a re-analysis of the deposited data

Results flagged for a closer look

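A sample was picked out where it lay far from the rest of its group by Dixon's criterion, which chance meets in about 1 of 20 groups, and 12 of 72 tested combinations of gene and group met it. In 3-week TBT liver 3, Cd163 was lowest of its group at 11.3 CPM, and Marco and Adgre1 were highest at 88.2 and 75.3 CPM. In tumor 11, Cd163 and Vsig4 were lowest, at 0.285 and 4.91 CPM. In 5-month vehicle liver 9, a technically deviating library, Clec4f, Cd5l and Csf1r were lowest, at 24.97, 18.3 and 23.5 CPM. In 5-month high-risk liver 15, also technically deviating, Adgre1 and Csf1r were lowest, at 19.4 and 45.2 CPM. In 10-month vehicle liver 7, Cd163 was lowest at 13.5 CPM, and in 10-month vehicle liver 1, Cd5l was highest at 117 CPM.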

How the results depend on the processing

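Of 693 alternative values for single members called in a comparison, 626 kept direction and call, 66 lost the call and 1 reversed. The total includes members called in uninvolved liver against low-risk and against vehicle livers. Those contrasts hold samples that chose the list, so nothing is read from their part of the total. The reversal was Clec4f in 5-month high-risk against vehicle livers with a replicate block over the 3 shared numbers, at 0.0234 on the log2 scale, where 0 members were lower. That block kept only samples with those 3 numbers. Vehicle and TBT samples with the same number differ in exposure, so they are not pairs from 1 animal. Among the counts of called members, batch 1 alone gave 0 higher and 2 lower for 5-month high-risk against low-risk livers and 0 lower against vehicle livers, and a fit of those 2 groups only gave 1 lower. For tumors against uninvolved liver, 1 member was higher with DESeq2, with all 10-month groups in 1 fit, with a replicate block without mice 3 and 6, and in leave-one-out fits, where the count ran from 0 to 1. A replicate block over 6 mouse numbers left the counts higher and lower at the 0 of the main fit. For the change of the risk difference, 1 was lower with DESeq2 and 1 without technically deviating libraries. Both contrasts hold samples that chose the list, so nothing is read from these counts. In the main fits 7.55% of all genes were higher in tumors than in uninvolved liver, and 0.159% were lower in the change of the risk difference. For vehicle livers of 5 months against 3 weeks, 3 were lower with no filter on low counts, and 3 to 7 when samples were left out. Batch 1 alone and the block held fewer samples than the main fits. The cause of these changes was not tested. With a replicate block over shared numbers, again not pairs from 1 animal, 6 members were lower in tumors against vehicle livers. Leaving out samples gave 3 to 4 lower in 5-month high-risk against low-risk livers, 2 to 3 against vehicle livers, and 5 to 6 in tumors against vehicle livers. The share of all genes called in each alternative fit was not computed. Whether the members or all genes moved cannot be told from these counts, so nothing is read from them. Cd163 and Timd4 kept their fall against low-risk livers in all 26 fits that left out 1 sample, with log2 fold changes of -3.69 to -3.08 and -2.90 to -2.22. In 5-month high-risk libraries Cd163 rested on as few as 7 counts, Timd4 on as few as 1, and Marco and Folr2 on as few as 5 each. In tumors Timd4 rested on 9 to 25 counts per library. Such low counts limit the precision of these genes there.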

Other observations

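The 10-month vehicle library labelled as a tumor, a single sample with no replicate that entered no comparison and deviated technically, held 1.14 CPM of Cd163, 1.83 CPM of Timd4 and 3.13 CPM of Marco. It also held 33.0 CPM of Clec4f, 28.6 CPM of Vsig4, 38.8 CPM of Cd5l, 25.9 CPM of Adgre1, 1.30 CPM of Folr2 and 53.4 CPM of Csf1r. Its Gpnmb was at 50.5 CPM and its Trem2 at 4.196 CPM. Cd163 lay within the range of the 7 tumors of TBT-exposed mice (0.285 to 1.77 CPM), while Marco and Timd4 lay above their highest values of 3.09 and 0.940 CPM.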
